A study of Mus musculus with 3 samples.

Results

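Basal keratinocytes of healing mouse skin wounds were taken from single-cell RNA libraries as cell barcodes chosen by their keratin UMIs, and the values of those genes are therefore a description of the choice. A barcode was kept when it held at least 1000 UMIs (unique molecular identifiers, each marking 1 captured mRNA molecule), at most 10% mitochondrial UMIs, at least 1% of its UMIs from Krt5, Krt14, Krt15, Krt17, Krt1, Krt10 and Krtdap together, at least 3 UMIs of the epithelial genes Dsp, Perp, Sfn and Epcam, and under 1% from the fibroblast genes Dcn and Col1a2. It was called basal when Krt5 and Krt14 together had more UMIs than Krt1 and Krt10 together, and suprabasal otherwise. Of the 39535 barcodes of the Day 7 and Day 14 libraries, 279 were basal, 26 on Day 7 and 253 on Day 14, and 288 were suprabasal, 9 on Day 7 and 279 on Day 14. The Day 3 library held 1 barcode that met the basal limits, with 6463 UMIs, 225 UMIs of Krt14 and none of Krt5, and it was not compared.

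The libraries were made from wounded skin of male C57BL/6J mice, an inbred laboratory strain, on Days 3, 7 and 14 after injury, and the study used them to follow the cells of the wound during repair. The labels name no other genotype and no treatment. According to the methods of the study the wounds were excisional, tissue from several wounds was pooled for each library, and the cells were not sorted. There was 1 library per day, no unwounded skin was analysed here, and cells of 1 library are not replicates, so no difference below has a replicate check and no test was made.

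Basal keratinocytes form the innermost layer of the epidermis, where integrins and hemidesmosomes hold them to the laminin-rich basement membrane, and they include the dividing cells that renew the tissue. Cells that leave this layer give up Krt5 and Krt14 and make Krt1 and Krt10 as they move toward the surface. Beside a wound, basal cells loosen from the membrane, make the keratins Krt6a, Krt6b and Krt16 together with matrix proteases, and migrate over the wound bed until the surface is covered.

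Basal cells took up 0.137% of the 18923 barcodes of Day 7 that passed the UMI and mitochondrial limits (95% Clopper-Pearson interval 0.0898 to 0.201) and 1.83% of 13803 on Day 14 (1.62 to 2.07). They made up 74.3% of the gated keratinocytes on Day 7 (56.7 to 87.5, 35 cells) and 47.6% on Day 14 (43.2 to 51.9, 532 cells). Every interval here covers counting error only, and shares of dissociated cells are not shares of tissue. The 26 cells of Day 7 held 231111 UMIs with a median of 7590 a cell, and the 253 of Day 14 held 1534980 with a median of 5283, so values of Day 7 are the less precise ones. The suprabasal cells of Day 14 held 2213816 UMIs with a median of 7441.

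The keratin rule separated the cells widely, with few of them near the line. On Day 7, 19 of 26 basal cells had no Krt1 or Krt10 UMI and 1 lay within 1 log2 unit of the line, with 339 UMIs of Krt5 and Krt14 against 204 of Krt1 and Krt10. On Day 14, 119 of 253 basal cells had none and 9 lay within 1 log2 unit, as did 15 of the 279 suprabasal cells, and the closest basal cell held 49 against 48 UMIs. Among the suprabasal cells of Day 14, 5 had no UMI of any of the 4 genes and were placed there by the rule for equal sums. The lower limit on keratin cut through a continuous range: the members with the least keratin had 1.01% (Day 7) and 1.00% (Day 14), and 14 and 124 barcodes that met every other limit lay under it, the nearest at 0.998% and 0.997%.

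**Figure D1:**
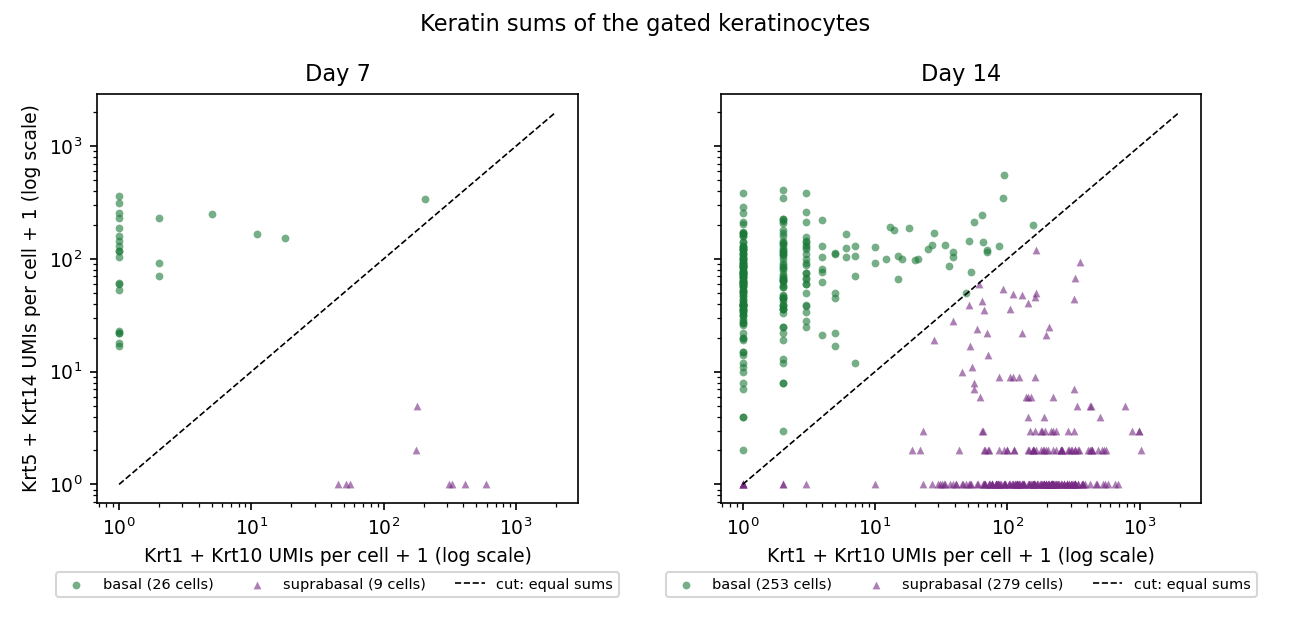
Each point is 1 gated keratinocyte of Day 7 (left) or Day 14 (right), with its Krt1 and Krt10 UMIs on the x axis and its Krt5 and Krt14 UMIs on the y axis, both plus 1 and on log scales. The dashed line marks equal sums: the 26 and 253 basal cells (circles) lie above it and the 9 and 279 suprabasal cells (triangles) on or under it, and few cells of Day 14 stand between the groups.

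Basal markers that the rule did not use were present on both days. Trp63, the transcription factor that maintains stratified epithelium, was found in 22 of 26 and 192 of 253 cells, at 389 and 351 CPM (counts per 1e6 UMIs, from the UMIs of all cells of a group summed). After each cell was thinned to 1000 UMIs, Trp63 was found in 38.5% and 27.3% of basal cells, and in 0% of the Day 7 and 0.3% of the Day 14 macrophages of these libraries, which should lack it. Col17a1, the transmembrane collagen of hemidesmosomes, was found in 19 and 227 cells. Suprabasal cells of Day 14 also held both genes, Trp63 in 18.3% and Col17a1 in 21.1% after thinning against 65.6% for Col17a1 in basal cells, so these 2 genes set keratinocytes apart from other types more than basal from suprabasal cells. Itgb4, another basal marker outside the rule, differed between the layers. After thinning it was found in 10.3% of basal and 0% of suprabasal cells of Day 14. The gate also took in cells with transcripts of hair follicle epithelium. At least 2 UMIs of the follicle markers (Lhx2, Lgr5, Krt79, Cst6, Defb6 and others) were held by 4 of 26 cells on Day 7 and 66 of 253 on Day 14, and by 157 of the 279 suprabasal cells of Day 14, so leaving such cells out leaves 187 basal and 122 suprabasal cells of that day.

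Transcripts of other cell types were not evenly spread over the days. Macrophage, dendritic, T cell, fibroblast and endothelial markers together reached 1% of UMIs in 5 of 26 basal cells of Day 7 and in 14 of 253 of Day 14. Fibroblast markers summed to 5686 CPM on Day 7 and 2848 CPM on Day 14 (all 8 detected on both days), and Langerhans and dendritic markers to 1506 and 797 CPM with Cd207 at 0. Neutrophil markers summed to 692 and 3.91 CPM, most of it S100a8 and S100a9 (290 and 359 CPM on Day 7), with 1 Day 7 cell at 2.01% of its UMIs. Pericyte markers summed to 545 and 64.5 CPM, with 3 of the 6 detected on Day 7. Most of that Day 7 sum was Acta2, which the study takes as a marker of myofibroblasts. Macrophage markers were at 537 and 472 CPM, and Merkel cell, melanocyte, endothelial and T cell markers at 86.0 CPM or less. Gm42418, a transcript that overlaps ribosomal RNA, took 11.4% and 7.81% of basal UMIs. Of the barcode sequences, 111 occurred in both libraries, including 1 basal cell of each day, and none was basal in both.

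Between Day 7 and Day 14 the levels of wound keratins, proteases and the laminin chains Lama3 and Lamb3 fell in the basal cells. Those of 8 of 16 early response genes and of the chemokines Ccl27a and Cxcl14 rose. Of 2763 genes with a mean of at least 50 CPM and at least 20 UMIs over both days, 259 were at least 2-fold higher on Day 14 (9.37%) and 375 at least 2-fold lower (13.6%), and the median log2 ratio was −0.09. Scaling by the median of ratios moved that median to 0.19 and the counts to 399 higher and 218 lower, so the balance of directions depends on the scaling. Under it Col4a1, Col7a1, Dsg3, Epgn, Itgav, Krt1, Krt17, Mmp14, Myh9, Pkm, Pkp1 and Pthlh were less than 2-fold lower, and no named gene turned. In the fibroblasts and macrophages of the same libraries, gated on their own markers and holding 13426822 to 55495506 UMIs a day and so with far less counting error, 2.82% and 2.32% of genes were higher and 2.62% and 2.36% lower. Below, a gene rose or fell when its CPM differed at least 2-fold, and each ratio is log2 of Day 14 over Day 7 with its 95% counting interval.

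Of 14 wound keratins and alarmins (genes that keratinocytes switch on after injury), 10 had enough UMIs and all 10 fell, against 13.6% of all genes compared. The median log2 ratio was −5.72. Krt6b, Slpi, Sprr1b, S100a8 and S100a9 were far under the limit on mean CPM on Day 14 and passed it through Day 7 alone. For them a fall was the only possible call, so the count and the median rest partly on that limit. Other members, among them Krt6a, Krt16 and Fabp5, were above the limit on Day 14 too. Krt6a, which lends keratin filaments to migrating keratinocytes, had 4768 CPM in 20 of 26 cells on Day 7 and 232 CPM in 64 of 253 cells on Day 14, a log2 ratio of −4.36 (−4.54 to −4.19). Per cell it ran from 0 to 22005 CPM on Day 7 with a median of 2498, and from 0 to 4932 CPM on Day 14 with a median of 0. The ranges overlap, since 6 cells of Day 7 had none, but most cells of the earlier day were above nearly all of the later one. At 1000 UMIs a cell, Krt6a was found in 73.1% of basal cells on Day 7 (52.2 to 88.4) and 14.2% on Day 14 (10.2 to 19.2), against 0.2% and 0.05% of macrophages.

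Krt16, the partner of Krt6a in the filament, fell from 4967 to 489 CPM (−3.34, −3.48 to −3.21). Of its 1148 UMIs on Day 7, 496 were in 1 cell. Krt16 was not among the named genes that came under 2-fold without that cell. Its median per cell was 372 CPM on Day 7 and 0 on Day 14. After thinning, Krt16 was found in 34.6% of basal cells on Day 7 (17.2 to 55.7) and 17.8% on Day 14 (13.3 to 23.1). These intervals overlap. Krt6b had 1008 CPM in 9 cells of Day 7 and 1 UMI in all 253 cells of Day 14, a log2 ratio of −10.60 (−15.91 to −8.10). The sequences of Krt6a and Krt6b are near-identical, and those of Krt14, Krt16 and Krt17 are related. How reads were divided within each family was not tested and stays uncertain. Fabp5, a fatty acid carrier of keratinocytes, fell from 7788 CPM in 18 cells to 254 CPM in 94 (−4.94, −5.10 to −4.78), and it also fell in fibroblasts (−2.06) and macrophages (−1.45).

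Smaller alarmins and protease inhibitors followed the same direction. Stfa1, a cysteine protease inhibitor with close paralogs, fell from 1263 CPM in 16 cells to 23.5 CPM in 14 (−5.75, −6.29 to −5.25). Slpi, a secreted inhibitor of neutrophil elastase, fell from 134 CPM in 9 cells to 1.3 CPM in 2. The cornified envelope precursor Sprr1b fell from 891 to 9.77 CPM, but it was in 6 and 2 cells, and for Sprr1a, found in 3 cells of Day 7, the ratio of −1.71 was under 2-fold without the Day 7 cell that held 48.5% of its UMIs. S100a8 and S100a9, the calprotectin subunits that neutrophils also make, fell by 8.80 and 8.11 log2 units, and fell by 5.50 and 8.01 in fibroblasts and by 4.81 and 5.67 in macrophages. In basal cells 79.1% of S100a8 UMIs of Day 7 sat in 1 cell. These are the same UMIs that make up most of the neutrophil marker sum above, and whether they came from keratinocytes or neutrophils cannot be told apart here.

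Of 20 genes of migration and matrix proteolysis, 12 could be compared, 11 fell, against 13.6% of all genes, and none rose (median −1.73). Members nearly absent on Day 14, such as Mmp9 and Mmp13, passed the limit on mean CPM through Day 7 alone. For such genes a fall was the only possible call. Mmp9, which cleaves type IV collagen, had 904 CPM in 11 cells of Day 7 and no UMI on Day 14, a log2 ratio of at most −8.85 when 3 UMIs are allowed to the Day 14 cells. Per cell it reached 5028 CPM. Mmp13, an interstitial collagenase, had 679 CPM in 8 cells of Day 7 and 1 UMI in 1 of 253 cells of Day 14 (−10.03, −15.34 to −7.53), and per cell it reached 7222 CPM. In fibroblasts Mmp13 went from 20.4 to 1.21 CPM and Mmp9 from 8.04 to 0.811 CPM, under the basal levels of Day 7.

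The matrix glycoprotein Tnc fell from 320 CPM in 11 cells to 55.4 CPM in 36 (−2.53, −3.0 to −2.06). Tnc was also expressed by fibroblasts, at 708 and 168 CPM, and Fn1 was higher in fibroblasts (1990 CPM on Day 7) than in basal cells (199 CPM). Genes of the actin cytoskeleton moved less: Flna fell by 1.90 log2 units, Fscn1 by 1.55 and Myh9 by 1.19. Cd44, the hyaluronan receptor, was at 697 and 401 CPM and stayed within 2-fold (−0.80, −1.05 to −0.54).

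**Figure D2:**
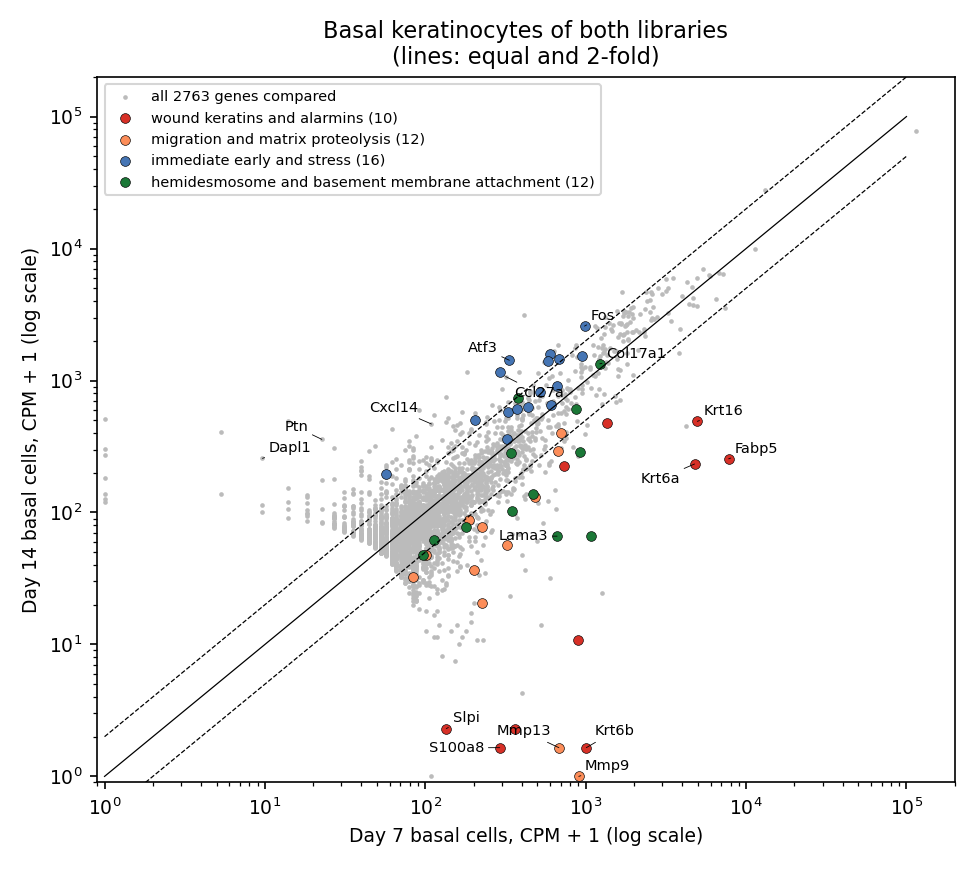
Each grey point is 1 of the 2763 genes compared, with its CPM plus 1 in Day 7 basal cells on the x axis and in Day 14 basal cells on the y axis, both on log scales. The solid line is equality and the dashed lines 2-fold; the 10 wound genes (red) and 11 of the 12 migration genes (orange) lie under the lower dashed line, and 8 of the 16 early response genes (blue) above the upper one.

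Genes of attachment to the basement membrane parted into 2 groups. Of 16, 12 could be compared, 7 fell, against 13.6% of all genes, none rose and 5 stayed within 2-fold (median −1.12). The laminin chains Lama3 and Lamb3, parts of the basement membrane ligand that migrating keratinocytes lay down, were among those that fell. Lama3 went from 662 CPM in 17 of 26 cells to 65.1 CPM in 71 of 253 (−3.35, −3.72 to −2.97) and Lamb3 from 467 to 137 CPM (−1.77, −2.11 to −1.42). Per cell Lama3 had a median of 182 CPM and a maximum of 2943 CPM on Day 7, and a median of 0 and a maximum of 661 CPM on Day 14.

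The integrin chain Itgb4, which binds laminin in hemidesmosomes, fell from 346 CPM in 12 cells to 101 CPM in 114 (−1.78, −2.18 to −1.37), and Itgb1 from 926 to 285 CPM (−1.70, −1.94 to −1.46). Its partner Itga6 was at 865 and 606 CPM (−0.51, −0.74 to −0.29). Col17a1 was at 1225 and 1336 CPM (0.13, −0.05 to 0.31), and the plakin Dst at 376 and 730 CPM (0.96, 0.64 to 1.29). Another plakin, Plec, was at 342 and 281 CPM (−0.28, −0.63 to 0.08), so these 4 genes stayed within 2-fold. Without the Day 7 cell with most of their UMIs, Col7a1 and Col4a1 were no longer past 2-fold.

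The promoter sequences of 4 genes, among them the only 2 of the genes that fell furthest whose window held the motif searched, are shown for the 250 bases before the start of each gene, 5′ to 3′ on the strand of the gene, from RefSeq (build GRCm38.p6). Mmp13 (chr9:7272264-7272513, plus strand) and Sprr1b (chr3:92438780-92439029, minus strand) fell, Ptn (chr6:36810180-36810429, minus strand) rose and Col17a1 (chr19:47692043-47692292, minus strand) kept its level. Capitals mark a match to TGANTCA, which was searched on both strands. With C or G in the middle these are the letters of the AP-1 site (the site of Fos and Jun proteins), but the search allowed any middle base.
Mmp13: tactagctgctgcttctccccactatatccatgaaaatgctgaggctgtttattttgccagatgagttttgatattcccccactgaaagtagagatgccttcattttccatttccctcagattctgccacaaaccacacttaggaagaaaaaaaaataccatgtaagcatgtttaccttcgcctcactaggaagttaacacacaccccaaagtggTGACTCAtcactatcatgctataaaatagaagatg
Sprr1b: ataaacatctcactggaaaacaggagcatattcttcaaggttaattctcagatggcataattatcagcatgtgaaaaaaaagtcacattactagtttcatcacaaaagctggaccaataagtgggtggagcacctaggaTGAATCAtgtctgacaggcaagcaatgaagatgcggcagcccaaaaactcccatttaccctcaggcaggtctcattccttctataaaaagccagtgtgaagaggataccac
Ptn: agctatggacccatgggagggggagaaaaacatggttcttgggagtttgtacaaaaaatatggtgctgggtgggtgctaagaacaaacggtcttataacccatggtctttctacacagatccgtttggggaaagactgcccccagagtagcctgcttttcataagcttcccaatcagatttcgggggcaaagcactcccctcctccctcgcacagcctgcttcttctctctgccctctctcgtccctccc
Col17a1: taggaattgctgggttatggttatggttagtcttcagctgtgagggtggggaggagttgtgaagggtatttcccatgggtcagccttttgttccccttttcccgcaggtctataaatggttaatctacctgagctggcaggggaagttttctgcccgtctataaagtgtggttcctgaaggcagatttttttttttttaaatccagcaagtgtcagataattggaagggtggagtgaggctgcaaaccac
The match begins 35 bases before the start of Mmp13 and 111 bases before that of Sprr1b, and the windows of Ptn and Col17a1 hold none. Its middle base is C in Mmp13 and A in Sprr1b, so only that of Mmp13 has the AP-1 letters, and the counts that follow take any middle base. Of 32851 such windows in the table, 2217 hold a match (6.75%). Of the 12 genes that fell furthest among those found in at least 20% of cells, 5 had a window and 2 matched, and of the 12 that rose furthest 8 had a window and 0 matched. Of the 12 such genes furthest above suprabasal cells on Day 14, 8 had a window and 0 matched, and of the 12 furthest below, 10 had a window and 3 matched (Hal, Ivl and Serpinb12). A match describes the letters of the window and is not a bound site.

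Cell-to-cell differences on Day 7 were large, and the protease transcripts marked the cells with most Lama3 and Lamb3. Mmp9 or Mmp13 UMIs were found in 13 of the 26 cells and both in 6 of them, a division chosen after the values were seen. Lama3 was found in 12 of these 13 cells (1012 CPM) and in 5 of the other 13 (121 CPM), and Lamb3 in 11 and 6 (712 and 88.2 CPM). Tnc was in 10 against 1 cell (520 and 11 CPM), Inhba, a subunit of activin A, in 8 against 1 (256 and 11 CPM) and Itgb4 in 9 against 3 (534 and 55.1 CPM). In the cells with protease UMIs, Itgb4 and Lamb3 were above their Day 14 levels of 101 and 137 CPM. The values in the other cells rest on few UMIs in 3 and 6 cells and have no interval, so whether they differ from the Day 14 levels was not tested. Among genes that went the other way was Fabp5 (4573 CPM with protease UMIs against 12763 CPM without), although 1 cell held 573 of its 1800 Day 7 UMIs. Krt16 was in 10 cells with protease UMIs and 7 without, at 4637 against 5478 CPM.

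Krt15, a gene of the rule, was at 1025 CPM in 6 of the 13 cells without protease UMIs against 14.2 CPM in 2 of the 13 with them, and 1 cell held 43 of its 95 Day 7 UMIs. Krt6a was alike in level in both sets (4629 against 4858 CPM). The cells with protease UMIs were deeper, with a median of 10107 against 5839 UMIs, and the part of depth in the counts of cells was not tested.

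Of 16 desmosome and adherens junction genes, 12 were compared, 3 fell and none rose, where 13.6% of all genes compared fell, so the count is no result about the list. Gjb2, the gap junction protein connexin 26, fell from 415 CPM in 16 of 26 cells to 35.8 CPM in 20 of 253 (−3.54, −4.04 to −3.04). The desmosomal genes Pkp1 and Dsg3 fell by 1.21 and 1.14 log2 units. Cdh1, the classical cadherin of epithelia, stayed within 2-fold at 277 and 197 CPM, as did Gja1 (connexin 43) at 329 and 519 CPM.

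Keratins of the gate itself are given as a description, since the rule used them. Krt5 was at 4582 and 5138 CPM and Krt14 at 11315 and 9922 CPM. Krt15, a keratin of quiescent basal and follicle bulge cells, was at 411 CPM in 8 of 26 cells on Day 7 and at 3111 CPM in 228 of 253 on Day 14, while Krt17, which wounded epidermis and follicles share, was at 3799 and 1604 CPM. After thinning, Krt15 was found in 19.2% and 77.5% of cells. Krt1 was at 1017 and 463 CPM, but 86.4% of its Day 7 UMIs came from the 1 cell near the line, without which the direction turned (log2 ratio 1.62).

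Among 14 factors of basal identity, 10 were compared, 3 rose and none fell, where 9.37% of all genes rose and the calls of Sox9 and Id1 depended on the settings given here, so the count is no result about the list. Trp63 (−0.15, −0.47 to 0.19), Tfap2a (0.14, −0.51 to 0.85), Tfap2c (0.09, −0.55 to 0.81) and Gata3 (0.09, −0.44 to 0.66) differed by less than their counting error. Id3 and Id1, targets of BMP signalling, rose from 60.6 to 238 CPM (1.98, 1.21 to 2.86) and from 73.6 to 149 CPM (1.02, 0.31 to 1.82). Id1 was under 2-fold with at least 2000 UMIs a cell (0.99), with Dcn and Col1a2 under 0.2% (0.82), without other types' barcodes (0.70) and without the Krt17-high clusters of Day 14 (0.88). Sox9, a factor of follicle stem cells and of injured epidermis, was at 138 CPM in 13 cells and 311 CPM in 90 (1.17), but the ratio turned to −0.24 without cells holding follicle markers.

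All 16 early response and stress genes could be compared, 8 rose, 8 stayed within 2-fold and none fell, where 9.37% of all genes rose, and the median log2 ratio was 0.96. Atf3 rose from 333 to 1423 CPM (2.09, 1.77 to 2.44), Fosb from 290 to 1160 CPM (2.0, 1.65 to 2.38), Fos from 982 to 2583 CPM (1.39, 1.20 to 1.59) and Jund from 601 to 1597 CPM (1.41, 1.16 to 1.67). In fibroblasts the same ratios were 0.89 for Atf3, 0.84 for Fosb, 0.27 for Fos and 0.64 for Jund, and in macrophages they lay between 0.09 and 0.98. These genes answer to tissue dissociation as well as to growth signals, and the libraries were dissociated separately, so the handling of a day and the day cannot be told apart.

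Growth factor and cytokine genes moved in both directions. Of 13 EGF receptor ligands and growth factor receptors, 8 were compared, 2 rose and 3 fell, against 9.37% and 13.6% of all genes. The ligands Tgfa (82.2 to 20.2 CPM, −2.03), Areg (164 to 54.1 CPM, −1.60) and Epgn (156 to 76.2 CPM, −1.03) fell, while the receptors Fgfr2 (43.3 to 90.6 CPM, 1.07) and Erbb3 (30.3 to 74.9 CPM, 1.31) rose. Areg and Epgn were no longer past 2-fold without the Day 7 cell with most of their UMIs, nor were Fgfr2 and Erbb3 without the barcodes that held other types' transcripts.

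Of 20 cytokines and chemokines, 8 were compared, 2 rose and 1 fell, where 9.37% and 13.6% of all genes did, so the values below are those of single genes. Ccl27a, a chemokine that draws T cells to skin, rose from 316 CPM in 15 cells to 1070 CPM in 181 (1.76, 1.42 to 2.12), and Cxcl14 from 108 CPM in 10 cells to 467 CPM in 140 (2.11, 1.54 to 2.75). The Cxcl14 ratio was 1.65 without cells holding follicle markers, whose sum was 338 and 1015 CPM on the days, and 1.11 without the Day 14 clusters high in Krt17, and the Ccl27a ratio was 3.04 with a keratin limit of 2%. Il24 fell from 117 to 41.0 CPM (−1.51), in 7 cells on each day. After thinning, Cxcl14 was found in 7.69% of basal cells on Day 7 and 24.5% on Day 14, against 0.5% and 0.25% of macrophages. In fibroblasts it was found in 1.65% and 5.75%, the same direction as in basal cells.

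Among ligands of the TGFB and IL1 pathways, Tgfb1 and Il1b were lower in basal cells than in macrophages. Tgfb2 fell from 112 CPM in 6 cells to 10.4 CPM in 13 (−3.43, −4.43 to −2.48), and Tgfbi, a matrix protein that TGFB induces, from 424 to 136 CPM (−1.64). Tgfb1 was at 60.6 and 33.9 CPM and Il1b at 34.6 and 7.82 CPM, under the limits for comparison, where macrophages had 137 and 130 CPM of Tgfb1 and 877 and 1067 CPM of Il1b. Itgbl1, the gene for an integrin-related secreted protein that names the study, had 0 UMIs on Day 7 and 7.82 CPM on Day 14, against 88.0 and 337 CPM in fibroblasts.

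Of 16 other secreted factors, 9 were compared, with 1 higher (Bmp2, 17.3 to 95.8 CPM, 2.47) and 3 lower, against the same 9.37% and 13.6%. Pdgfb, a mitogen for pericytes and fibroblasts, fell from 164 to 37.8 CPM (−2.12, −2.74 to −1.49) and Pthlh from 95.2 to 47.6 CPM, just at the 2-fold limit. Igfbp5 fell from 156 to 35.2 CPM, but fibroblasts held 922 CPM on Day 7, and without barcodes holding other types' transcripts it was higher on Day 14 (log2 ratio 1.49). Of 15 hypoxia and glycolysis genes, 12 were compared, 3 fell (Eno1 −1.55, Slc2a1 −1.38, Pkm −1.08), none rose and 9 stayed within 2-fold. Against the 13.6% of all genes this count too is no result about the list, and Slc2a1 and Pkm were under 2-fold without the Day 7 cell with most of their UMIs. The same 3 genes differed by −1.51, −2.19 and −1.28 in fibroblasts.

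Genes of the cornified layer gave ratios that rest on few cells. Of 20 terminal differentiation genes, 10 were compared, 5 rose and 2 fell, against 9.37% and 13.6% of all genes. Calm4 rose from 90.9 CPM in 6 cells to 595 CPM in 111 (2.71, 2.09 to 3.41). Of its 913 UMIs on Day 14, 527 were in the 29 cells just on the basal side of the keratin line, and the 141 cells furthest from it were at 107 CPM, near the Day 7 level. Lor, the main protein of the cornified envelope, was in 1 cell of Day 7 and 11 of Day 14, Flg in 0 and 4, and the Lce1 genes in 0 and 1 to 4, so these ratios rest on few cells. On Day 14 a single cell held 98.4% of the Lor UMIs, 98.4% of those of Flg and 99.7% of those of Lce1a1. Cnfn fell, but 92.7% of its Day 7 UMIs came from 1 cell.

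By size alone, the 8 genes that rose furthest were Lor, Lce1a1, Defb6 (an antimicrobial peptide, in 1 and 12 cells), Dapl1, Lce1b, Lce1a2, Ptn and Lce1c. The 8 that fell furthest were Krt6b, Mmp13, Mmp9, Gsta4, Slpi, Sprr1b, Gm5416 and Stfa1, of which Gm5416 had 108 CPM in 5 cells and then none. Ranked by size among genes found in at least 20% of the cells of the higher group, a limit added after the values were seen, the order began with Dapl1 and Ptn, which are in no role list. Dapl1, an epithelial differentiation gene, was in 1 of 26 cells and 128 of 253 (8.65 to 256 CPM, 4.89, 3.02 to 7.94). Ptn, the heparin-binding growth factor pleiotrophin, was in 4 and 106 cells (21.6 to 357 CPM, 4.04, 2.81 to 5.67), with 358 and 373 CPM in fibroblasts. Ndufa4l2 (3.56), Rgcc (3.55), Cdkn1b (the cell cycle inhibitor p27, 3.52), Prc1 (a protein of the dividing cell's spindle, 3.19), Gem (3.02), Hopx (3.01), Pof1b (2.96), Sostdc1 (2.90) and Fcgbp (60.6 to 429 CPM, 2.83) followed. Sostdc1 was higher by 6.54 in fibroblasts too, where it went from 0.0253 to 2.36 CPM. At the other end Gsta4 fell by 6.95, with 86.0% of Day 7 UMIs in 1 cell, and Timp1 by 4.55, where fibroblasts had 764 and 466 CPM.

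**Figure D3:**
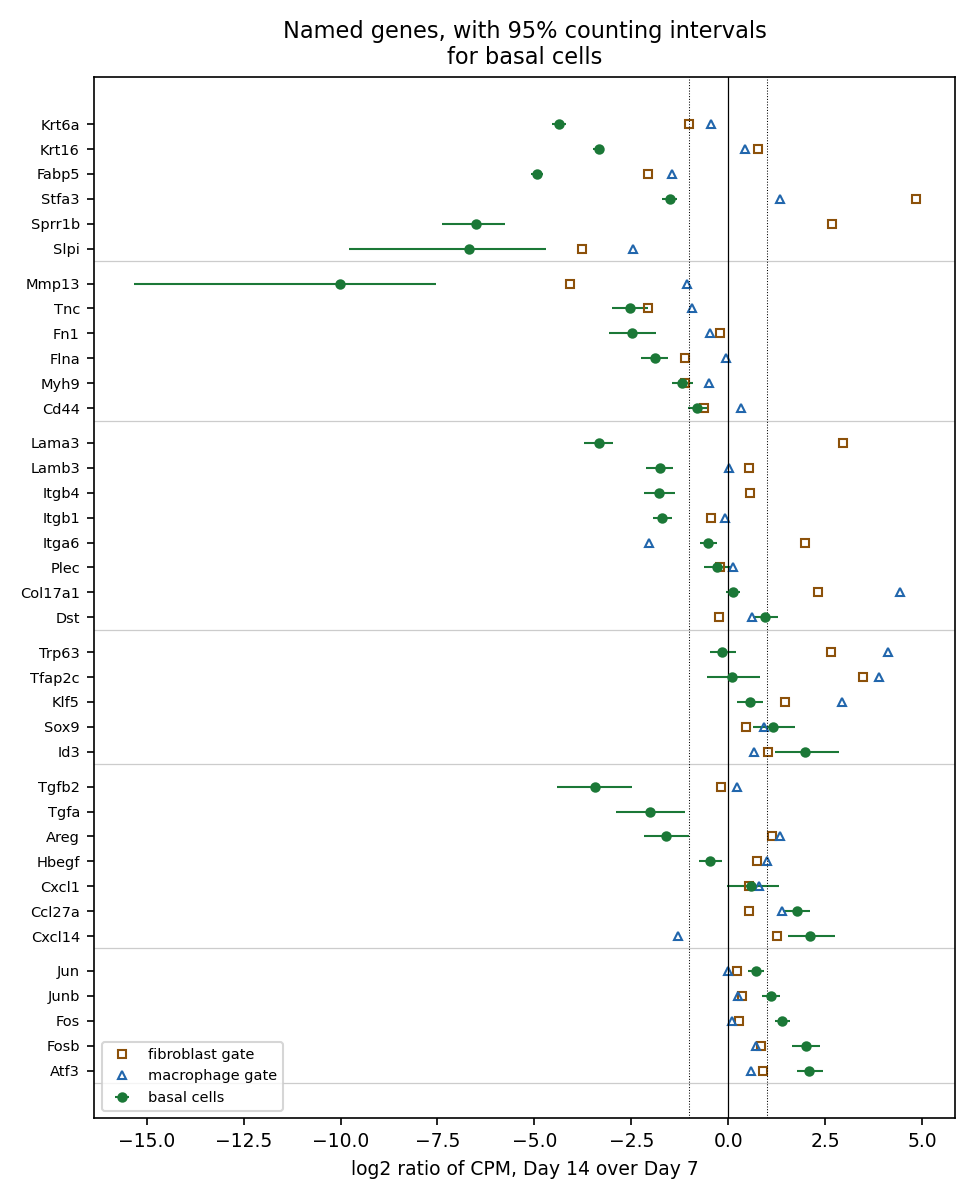
The x axis is the log2 ratio of CPM, Day 14 over Day 7, and each row is a named gene; filled circles with bars are basal cells with 95% counting intervals, squares the fibroblasts and triangles the macrophages of the same libraries where these held at least 20 UMIs. Solid and dotted lines mark equal levels and 2-fold; Lama3, Lamb3 and Itgb4 lie left of −1 in basal cells, and Fos, Fosb and Atf3 lie further right in basal cells than in the other 2 groups.

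Against the suprabasal cells of the same Day 14 library, basal cells were higher in all 7 attachment genes compared and lower in 8 of 13 terminal differentiation genes. The rule itself split these cells on keratins, so the comparison is a description. Of 2602 genes, 211 were at least 2-fold higher in basal cells (8.11%) and 221 lower (8.49%), with a median log2 ratio of 0.07. All 7 attachment genes compared were higher (median 2.30): Itgb4 had 101 CPM in 114 of 253 basal cells and 1.36 CPM in 3 of 279 suprabasal cells (6.22, 4.65 to 8.51), Lamb3 137 and 3.16 CPM (5.44, 4.37 to 6.77), and Col17a1 1336 and 279 CPM (2.26, 2.13 to 2.39). Itgb4 and Lamb3 passed the limit on mean CPM through basal cells alone. For such genes a higher level was the only possible call, so the count and the median rest partly on that limit. All 16 listed, compared or not, summed to 3910 CPM in basal and 868 CPM in suprabasal cells.

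Among genes with the largest ratios, Ptn had 357 against 5.42 CPM (6.04, 5.22 to 7.00), Fst, the activin antagonist follistatin, 499 against 19.9 CPM (4.65, 4.21 to 5.12, with 550 of its 766 UMIs in the 25 cells of cluster 5 below and 35.8 CPM outside the Krt17-high clusters), Fcgbp 429 against 17.6 CPM (4.61), Smoc2 208 against 12.6 CPM (4.04) and Cxcl14 467 against 36.1 CPM (3.69, 3.36 to 4.04). Ccl27a was also higher (1070 against 259 CPM, 2.05), as were Bcam, a laminin receptor (3.20), Gas1 (3.45), and the calcium-binding protein S100a6 (3666 against 398 CPM, 3.20, 3.1 to 3.31). Lce1l ranked first by size (8.11) but was in 3 basal cells, nearly all in 1 of them.

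Of the identity factors, 12 were compared between the layers, 2 were higher in basal cells, 2 lower and 8 within 2-fold, against 8.11% and 8.49% of all genes. Sox9 (311 against 37.0 CPM, 3.07) and Sox4 (124 against 29.4 CPM, 2.08) were higher in basal cells, although Sox9 was at 43.6 CPM outside the Krt17-high clusters of Day 14, and Grhl1 (34.5 against 155 CPM, −2.17) and Ovol1 (78.2 against 202 CPM, −1.37), factors of differentiating epidermis, were lower. Trp63 was within 2-fold at 351 and 195 CPM (0.85, 0.66 to 1.03), and Klf5 was alike (0.04, −0.09 to 0.17). Of 8 growth factor receptors and EGF receptor ligands, 3 were higher, 2 lower and 3 within 2-fold, against the same shares. Those higher were the receptors Fgfr2 (1.97), Igf1r (1.14) and Fgfr3 (1.09), of which Igf1r and Fgfr3 were under 2-fold without cells holding follicle markers, whereas the ligands Ereg (1.3 against 119 CPM, −6.52) and Areg (54.1 against 158 CPM, −1.54) were lower in basal cells. Ereg was found in under 20% of the suprabasal cells.

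Of 11 desmosome and adherens junction genes, 2 were higher in basal cells, 4 lower and 5 within 2-fold, against 8.11% and 8.49% of all genes. Dsg3, the desmoglein of deep layers, had 206 against 38.8 CPM (2.41, 2.06 to 2.77), while Dsg1a had 158 against 952 CPM (−2.59, −2.79 to −2.40) and Dsc1 5.86 against 165 CPM (−4.81, −5.95 to −3.87). Of 13 terminal differentiation genes, 8 were lower in basal cells, against 8.49% of all genes, 4 were within 2-fold and Lce1a1, with nearly all its UMIs in 1 cell, was higher. Those lower were Krt77 (59.9 against 5159 CPM, −6.43), Sbsn (300 against 3498 CPM, −3.54), Calm4 (595 against 4614 CPM, −2.96), Ivl (3.91 against 98.9 CPM, −4.66) and 4 others. Ivl passed the limit on mean CPM through suprabasal cells alone, so a lower level was its only possible call. Ranked by size, Ereg, Krt77, Serpinb12, Skint9 (−5.02), the histidine-degrading enzyme Hal (−4.99), the metallothionein Mt4 (69.7 against 2194 CPM, −4.98), Spink5 and Tesc (−4.93) were the furthest below. Spink5, which restrains skin proteases, had 21.5 against 660 CPM (−4.94), and Serpinb12 had no UMI in basal cells against 100 CPM (a log2 ratio of at most −5.68). Of 14 wound keratins and alarmins, 6 were compared, 2 were higher in basal cells, 3 lower and 1 within 2-fold, against 8.11% and 8.49% of all genes. All 14 summed to 1708 CPM in basal and 5063 CPM in suprabasal cells. Krt6a (3.1) and Krt16 (1.09, under 2-fold without the follicle marker cells) were higher in basal cells, and Fabp5 (−3.42) and Sprr1a (−2.78) were among those lower.

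The Day 14 cells were also placed along the ratio of the 2 keratin sums. In bins of at least 20 Day 14 cells, Col17a1 rose from 213 CPM in the 223 cells at the suprabasal end to 607 and 636 CPM in the next 2 bins, 976 CPM in 29 cells just on the basal side and 1482 CPM in the 141 cells at the basal end. Fcgbp went from 10.1 to 216 and 505 CPM in the same bins. Krt77 fell from 5877 CPM at the suprabasal end to 235 and 13.1 CPM, through 1686 and 831 CPM in the 2 bins between. Calm4 was not ordered in this way, at 4884, 1786 and 4060 CPM in the 3 suprabasal bins, 2584 CPM in the 29 cells just on the basal side and 107 CPM at the basal end. The terminal differentiation genes summed to 22077, 9719 and 23564 CPM in the suprabasal bins, and to 18396, 2893 and 2389 CPM in the basal ones. These sums can rest on single cells: the 910 Lor UMIs of the third suprabasal bin, 6574 CPM, came from 1 of its 21 cells, and 614 in the 29 cells just on the basal side came from 3. Ptn was highest next to the basal end, at 573 CPM in 74 cells. These cells had a median of 4069.5 UMIs, against 5661 at the basal end. In the Krt17-high clusters described below, Ptn was at 670 CPM, against 132 CPM in the other basal cells of Day 14. Krt5, which enters the ratio, was at 2513 CPM in those clusters against 7023 CPM in the others. The parts of depth and of those clusters in the place of the Ptn peak were not tested. Trp63 was between 194 and 245 CPM in the 4 bins up to the cells just on the basal side, and at 389 and 369 CPM in the 2 bins beyond.

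**Figure D4:**
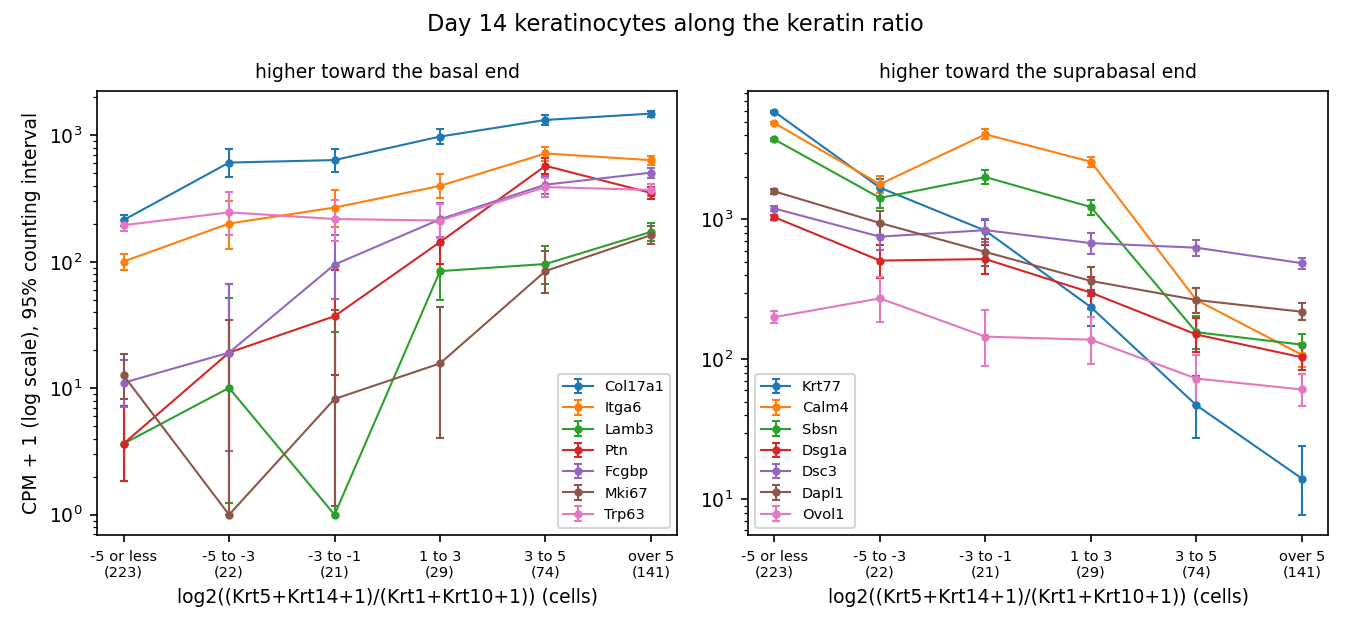
Day 14 keratinocytes are binned on the x axis by log2 of Krt5 plus Krt14 over Krt1 plus Krt10 (number of cells in brackets), and the y axis gives CPM plus 1 on a log scale with 95% counting intervals. Col17a1, Itga6, Lamb3, Ptn, Fcgbp and Mki67 (left) are higher and Krt77, Calm4, Sbsn and Dsg1a (right) lower at the basal end than at the suprabasal end, and Calm4 and Sbsn are not ordered between.

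Cycling cells were counted as those with at least 2 UMIs of S phase or of G2 and M phase genes after every cell was thinned to 1000 UMIs. On Day 7, 5 of 26 basal cells passed (19.2%, 6.55 to 39.4) and on Day 14, 48 of 253 (19.0%, 14.3 to 24.4), while 5 of 279 suprabasal cells of Day 14 did (1.79%, 0.584 to 4.13). The 2 basal shares differ by less than their counting error, with an interval for Day 7 wide enough to allow a difference of 2-fold, and the intervals of basal and suprabasal cells on Day 14 do not overlap. With a keratin limit of 2% the Day 7 share was 7.14%. With at most 5% mitochondrial UMIs the share was 3.65% of the 219 suprabasal cells left, which is more cells than the 5 found among all 279. UMIs were drawn anew for each setting, so the shares also vary with the draw, which the intervals do not cover. Without thinning the shares were 42.3%, 56.5% and 36.9%. In fibroblasts the thinned share went from 7.40% to 1.35% and in macrophages from 5.95% to 6.4%.

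By phase, cells with G2 and M phase UMIs were 2 of 26 on Day 7 (7.69%, 0.946 to 25.1) and 28 of 253 on Day 14 (11.1%, 7.48 to 15.6), and S phase cells 5 (19.2%, 6.55 to 39.4) and 31 (12.3%, 8.48 to 16.9). The intervals of the days overlap for both phases. Top2a, the topoisomerase of dividing cells, rose from 34.6 to 140 CPM (2.02, 1.01 to 3.25, but 0.89 when CPM was averaged over single cells) and Ube2c from 8.65 to 113 CPM (3.70, 1.83 to 6.76), while Mcm2, a replication helicase subunit, fell from 82.2 to 18.9 CPM (−2.12, −3.01 to −1.21, but −0.35 with a keratin limit of 2%). Against suprabasal cells of Day 14, 3 of 20 G2 and M phase genes could be compared. Top2a (3.88), Mki67 (3.50) and Ube2c (5.96) were higher in basal cells. All 20 summed to 45.2 CPM in suprabasal cells, under the limit on mean CPM. A gene could thus pass that limit only with a higher level in basal cells, so the count is no result about the list. The sum in basal cells, which does not depend on the limit, was 919 CPM. The 1 of 20 S phase genes compared was within 2-fold, but all 20 summed to 560 CPM in basal and 178 CPM in suprabasal cells. S phase cells were 12.3% of basal and 1.79% of suprabasal cells of Day 14.

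The 253 basal cells of Day 14 were not alike. Clustering without the genes of the rule gave 9 clusters, described here by leading genes and by other genes picked after their values were seen, with no test, since a gene that helped to define a cluster cannot test it. Cluster 8, with 15 cells, was led by Plk1 and Nusap1, and its G2 and M phase genes summed to 6810 CPM. Cluster 1, the largest with 62 cells, was led by Fam71a and Rasd1 and had Fos at 4460 CPM and Krt15 at 5044 CPM. Cluster 2, with 45 cells, was led by Ifi202b, with Serpinb2 at 1925 CPM and Bmp2 at 288 CPM.

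Krt17 took no part in the clustering, but it is a gene of the rule, through which cells low in Krt5 and Krt14 could reach the keratin limit, so the division described here is not independent of the choice of cells. Above 2000 CPM, a limit set after the values were seen, lay clusters 3, 5, 6 and 7, with 95 of 253 cells (37.5%). They had 3545 CPM of Krt17 against 210 CPM in the other 158 cells. Sox9 was in 72 of the 95 cells (683 CPM) and in 18 of the 158 (43.6 CPM), and Lhx2, a factor of follicle stem cells, was in 34 of the 95 cells and in none of the 158. Fst had 1144 against 35.8 CPM and Ptn 670 against 132 CPM.

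Within that set the clusters differed. Clusters 3 and 6, with 30 and 21 cells, held 33 of the 34 cells with Lhx2, and also Lgr5 (96.7 and 207 CPM), a receptor of follicle stem cells. Cluster 3 had Cxcl14 at 1713 CPM and Krt17 at 5383 CPM, and cluster 6 had Ptn at 1812 CPM and Nppc at 723 CPM. Cluster 5, with 25 cells, had Fst at 2575 CPM and Sostdc1 at 440 CPM. Cluster 7, with 19 cells, mixed Cst6, Krt79 and Asprv1 with the macrophage genes C1qb and Mrc1, and 7 of its cells held 1% or more of other types' transcripts. It stays unnamed, as does cluster 9, with 7 cells, of which 2 held the Rgs5 UMIs, a pericyte gene.

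In the other 158 cells Krt5, also a gene of the rule, was at 7023 CPM against 2513 CPM in the Krt17-high set, Col17a1 at 1805 against 681 CPM, Serpinb2 at 1032 against 76.4 CPM, Fcgbp at 632 against 147 CPM, Ndufa4l2 at 498 against 40.5 CPM and Igfbp3 at 471 against 23.4 CPM. Cxcl14 was higher in the Krt17-high set (793 against 233 CPM), while Ccl27a was at 954 against 1154 CPM. On Day 7, Lhx2 had no UMI and Lgr5 had UMIs in 1 cell, while Sox9 was in 13 of 26 cells.

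**Figure D5:**
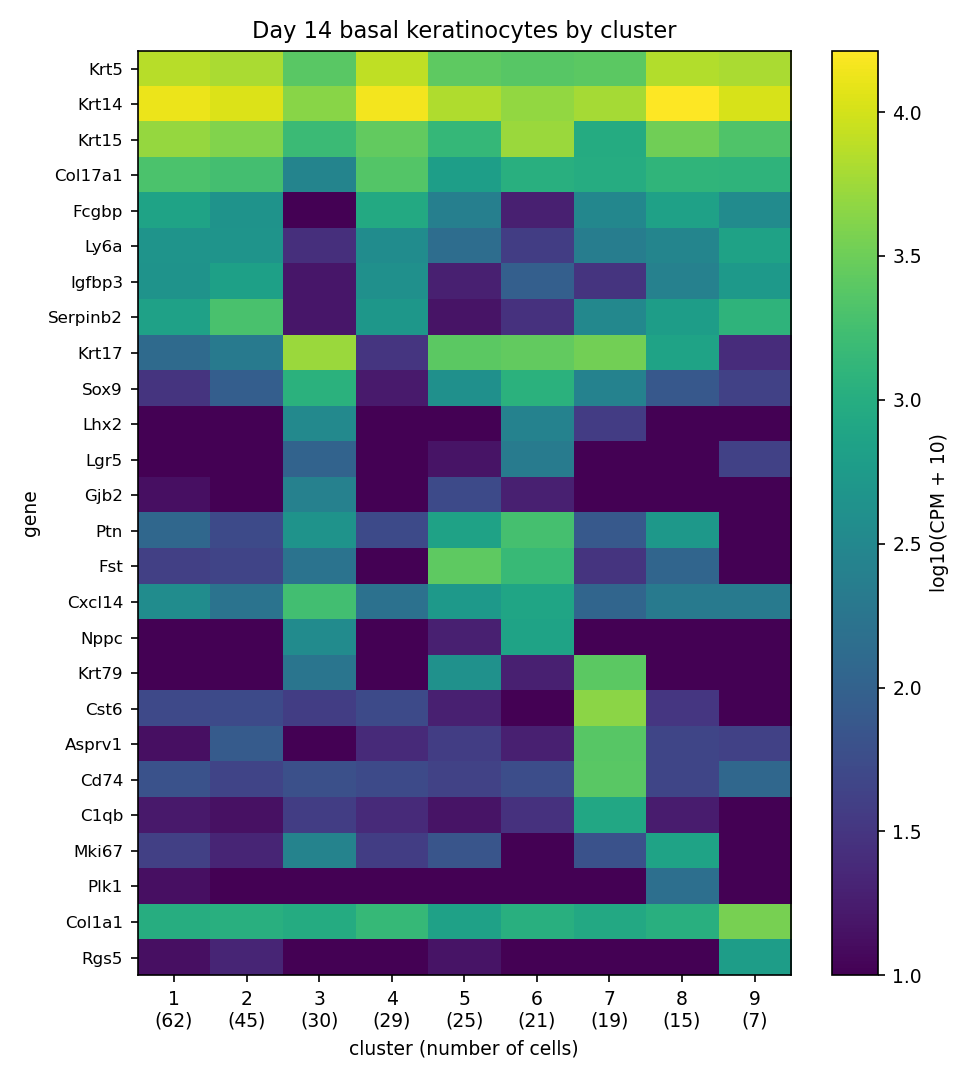
Colour gives log10 of CPM plus 10 for each gene (rows) in the 9 clusters of Day 14 basal cells (columns, with the number of cells). Krt17 and Sox9 are high in clusters 3, 5, 6 and 7, Lhx2 in clusters 3 and 6, Serpinb2 and Fcgbp in clusters 1, 2, 4 and 8, Plk1 in cluster 8, and C1qb and Cd74 in cluster 7.

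With the Krt17-high cells left out of Day 14 alone, the log2 ratios remained past 2-fold in the same direction for 86 of 96 named genes that had a value and were past it before, and 3 turned (Sox9, Asprv1 and Cst6). All 26 cells of Day 7 stayed in, 21 of them with Krt17 UMIs, so the days were not filtered alike. Leaving out, for each gene, the Day 7 cell with most of its UMIs kept 79 of 96 past 2-fold (among those lost were Itga2, Itgav, Mmp14, Myh9, Pkm, Pthlh, Slc2a1 and Stfa3), and leaving out barcodes with other types' transcripts kept 90 of 101, with Id1, Fgfr2, Erbb3 and Sox9 among those lost.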

How the data were processed

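Per the labels and the study's methods, skin wounds were dissociated without sorting and droplet 3′-end libraries were made, 1 for each of 3 days. The authors deposited raw UMI counts per gene and barcode, and the submitters' processing notes name Cell Ranger 6.0.0 and mm10. No column belonged to other samples (0). Of 32285 gene identifiers, 32158 were matched to a symbol.

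Cells were gated as stated in the report. Fibroblasts held at least 1% of UMIs from Dcn and Col1a2 and no Ptprc, Tyrobp or Fcer1g UMI, and macrophages at least 1% from Lyz2, C1qa, C1qb, C1qc and Cd74 and at least 3 UMIs of Tyrobp and Fcer1g. Both had under 3 UMIs of the epithelial genes. No doublet caller was run, and barcodes with other types' markers were left out as an alternative. The members and gene lists were chosen with earlier results of these data known. Named genes were members of role lists, the 8 highest and 8 lowest ratios by size, and others singled out after their values were seen.

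UMIs were summed per group and scaled to CPM. Genes with a mean of at least 50 CPM and at least 20 UMIs over both groups were compared, and 2-fold was the limit for a call. Intervals at 95% were exact Poisson (levels), conditional binomial (ratios) and Clopper-Pearson (shares), and cover counting error only. A group at 0 was given 3 UMIs. For shares of cells with a UMI, cells were thinned to 1000 UMIs, with 2000 fibroblasts and 2000 macrophages drawn per day. Clustering used 1500 variable genes, 15 components, 15 neighbours and a resolution of 1, without the gate, mitochondrial and ribosomal protein genes. With 1 library per day no test was possible. Simulated data held 4-fold changes and counting error but no differences between cells. There the Day 14 over Day 7 comparison called all 100 raised and all 61 lowered genes that passed the filter. It also called 24 of 2442 unchanged genes, a rate that does not carry over to real cells, which differ among themselves. Python 3.11.15, numpy 2.4.6, pandas 2.3.3, scipy 1.17.1, scanpy 1.11.5, igraph 0.11.9 and matplotlib 3.10.9 were used.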

Additional observations from a re-analysis of the deposited data

Results flagged for a closer look

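Col4a1, a chain of the collagen IV network of basement membranes, moved in opposite directions in basal keratinocytes and in fibroblasts. Its log2 ratio of Day 14 over Day 7 was 1.06 in fibroblasts and −1.04 (−1.75 to −0.28) in basal cells, where it had 95.2 and 46.3 CPM. The difference was not tested, since each day had 1 library, and the basal value was under 2-fold without the Day 7 cell with most Col4a1 UMIs.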

How the results depend on the processing

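No paired analysis was possible because each day had 1 library. Of 101 named genes past 2-fold between Day 14 and Day 7, 69 were so under every alternative with a value, 26 came under 2-fold in the same direction under at least 1, and 6 reversed. Of 66 between basal and suprabasal cells, 57 were past 2-fold under all, 9 came under and 0 reversed. A keratin limit of 2% left 14 and 137 basal cells and a Day 14 basal share of 34.7%. Thinning to 2000 UMIs gave cycling shares of 29.1% in basal and 8.37% in suprabasal cells of Day 14, and a minimum of 3 UMIs gave 11.1% and 0%. Between the days, scaling by the median of ratios gave 399 genes higher and 218 lower, a mean of at least 20 CPM gave 605 and 906, at least 100 CPM 133 and 164, a limit of 1.5-fold 493 and 702, and no filter 1178 and 2558. Between the layers the counts were 548 and 437 at 20 CPM, 102 and 95 at 100 CPM, 437 and 405 at 1.5-fold, and 2453 and 1369 with no filter. The filters change how many genes enter, and the cause of the other shifts was not tested.

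Reversed log2 ratios were, with Dcn and Col1a2 under 0.2%, Igfbp5 1.14 and Krt1 1.51, and with a margin of 2 times between the keratin sums, Krt1 1.12. Without barcodes holding other types' markers they were Igfbp5 1.49, Ifi27l2a 0.17 and Krt1 1.26. Without cells holding follicle markers they were Sox9 −0.24, Asprv1 −1.34, Cst6 −0.63 and Krt1 2.18, and without the Krt17-high clusters of Day 14 Sox9 −1.67, Asprv1 −1.0 and Cst6 −2.12. Averaging CPM over single cells gave Asprv1 −0.16, and leaving out the Day 7 cell with most UMIs gave Krt1 1.62. The last setting, the Krt17 division, the 20% ranking and a resolution of 0.5 (5 clusters) were chosen after seeing the data. Day 7 rests on 26 cells and 231111 UMIs.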
